A study of Sus scrofa with 81 samples.

Results

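The genes described here encode the proteins of the cytosolic ribosome. They were taken from the gene symbols of the deposited table: RPL or RPS followed by a number and at most a letter A, X or Y, together with RPLP0, RPLP1, RPLP2 and RPSA, with 1 large-subunit gene not analysed here. The choice gave 76 of 28061 genes, 31 of the small subunit and 45 of the large subunit. Of these, 75 were above 0 FPKM in all 81 libraries, and the same 75 entered the tests, which took the 14220 genes that reached 1 FPKM in 3 or more libraries. The other entry, a second gene carrying the symbol RPL18, was above 0 in 6 libraries only, with a highest stage mean of 0.067 FPKM, and was not tested. Every tested gene was above that limit in every library, so none passed the filter through a single group.

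RNA was measured in skeletal muscle of pigs of the strain labelled Landrance at 27 stages, with 3 libraries a stage and 81 in all. E and D in the stage names are taken here to count days of gestation and days since birth. The 15 prenatal stages (E33, E40, then every 5 days to E105) gave 45 libraries and the 12 postnatal stages (D0, D9, D20, D30, D40, D60, D80, D100, D120, D140, D160 and D180) gave 36. No group carried a treatment or an engineered allele, and the labels name neither the muscle nor the sex. Nor do they tell whether each library was made from its own animal, so the p-values rest on a spread between libraries that could be purely technical. All 18 muscle fibre genes of a fixed list, such as ACTA1 and CKM, were above 0 both before and after birth, and their summed level was 3731 to 45828 FPKM before birth and 24563 to 112870 FPKM after it.

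The small ribosomal subunit decodes the messenger RNA, and the large subunit joins amino acids and passes the growing chain through an exit tunnel. Each ribosome holds a single copy of nearly all of these proteins, so cells keep their supply balanced. The messenger RNAs of the family are known in mammals for a terminal oligopyrimidine tract (TOP), a C at the first base followed by an unbroken run of pyrimidines, through which the kinase complex mTORC1 controls their translation. Growing muscle adds ribosomes as its fibres enlarge, and ribosome content falls as growth slows.

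The start of each gene is shown first because the TOP tract is the sequence feature that the family is known for. Sequences were read from the pig genome (Sscrofa11.1, RefSeq annotation) as 15 bases before the farthest upstream annotated transcript start and 15 bases from it. The tract was searched on the transcript's strand as a C at the annotated start followed by at least 4 bases that are each C or T. In the windows below, capitals mark the run that begins at the start base. RPL10 (chrX:124927234-124927263, plus strand) and RPLP2 (chr2:507876-507905, plus strand) had long runs. RPL6 (chr14:39302432-39302461, plus strand), RPL17 (chr1:99048392-99048421, minus strand), RPS20 (chr4:75762194-75762223, plus strand) and RPLP0 (chr14:40223929-40223958, minus strand) had shorter ones, and RPLP1 (chr1:167296069-167296098, plus strand) had none at its annotated start. They are set side by side because these genes changed by different amounts after birth.
RPL10: caggcgtgggagcgcCTCTTTTCCTTCggc
RPLP2: cccccgcgccggcgtCTTCCTTTCTgtccc
RPL6: gctgaggccttagttCTCTTTCCCatcttg
RPL17: gagcctccggtctttCTTTTCCagtaagcg
RPS20: aggcctcacgccttcCTCTTTgaagaagac
RPLP0: cggcgtacagccctcCTCTCgccaggcgtc
RPLP1: aagaggctgcgcgcaggcgcgaggaatccc

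A run began at the farthest upstream annotated start of 17 of the 75 tested genes (22.7%). Of the 12949 other tested genes that had an annotated messenger RNA, 457 did (3.5%), and tested genes without one were left out. When any annotated start of a gene was allowed, 30.7% of the ribosomal protein genes and 7.7% of the other genes had one. Within 10 bases of the start, 52.0% and 32.2% had one. Annotated starts can lie some bases away from the base where transcription begins, so a gene without a match may still carry the tract, and no start was measured here.

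The ribosomal protein genes were among the most abundant RNAs of these libraries. Of the 100 genes with the highest mean FPKM (a fragment count divided by transcript length and by the fragments mapped in the library), 53 were of this family, and 1 was among the first 10. The median of their mean levels was 977 FPKM. The highest means were those of RPLP1 (3799 FPKM), which forms the acidic stalk of the large subunit with RPLP2, of RPS15 (1873 FPKM), a protein of the small-subunit head, and of RPLP0 (1713 FPKM), the base of that stalk. Among the lowest were those of the large-subunit protein RPL28 (209 FPKM) and of the small-subunit protein RPS24 (266 FPKM). Levels between genes rest on the transcript length used for each, and the median annotated length was 348 to 5903 bases over the family, with 5903 for RPS2. Ribosomal protein genes also have many near-identical processed pseudogenes, which can share their reads, so the value of a single gene is less certain than that of the family.

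Together these genes held 22.7% ± 1.49 of the summed FPKM in the prenatal libraries (SD, n = 45) and 14.3% ± 2.43 in the postnatal libraries (SD, n = 36). The share was 21.4% ± 0.818 at E105, 20.3% ± 1.07 at D0 and 11.9% ± 0.530 at D9 (SD, n = 3 each). The larger of these 2 differences lay between D0 and D9. FPKM are shares of a total, and in bulk tissue fewer cells of a type and less RNA per cell cannot be told apart. Results are given on 2 scales for this reason: the deposited FPKM, and the same values after each library was divided by its median ratio to the typical library (median-ratio scaled values). The dividing factor was 1.16 to 1.54 before birth and 0.582 to 1.03 after it, so the choice of scale bears on every comparison between the periods.

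Some libraries stood apart from the others of their stage. The median of the family was 753 FPKM in E90 replicate 2, against 1135 and 1171 FPKM in the other 2 libraries of E90. It was 436 FPKM in D100 replicate 2, against 697 and 713 FPKM, and the D140 libraries gave 553, 721 and 432 FPKM. Within stages, the SD of the library median was 0.16 on the log2 scale for deposited FPKM and 0.20 for scaled values. Single genes had a within-stage SD from 0.12 (RPL15) to 0.30 (RPL37A) on the log2 scale.

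**Figure D1:**
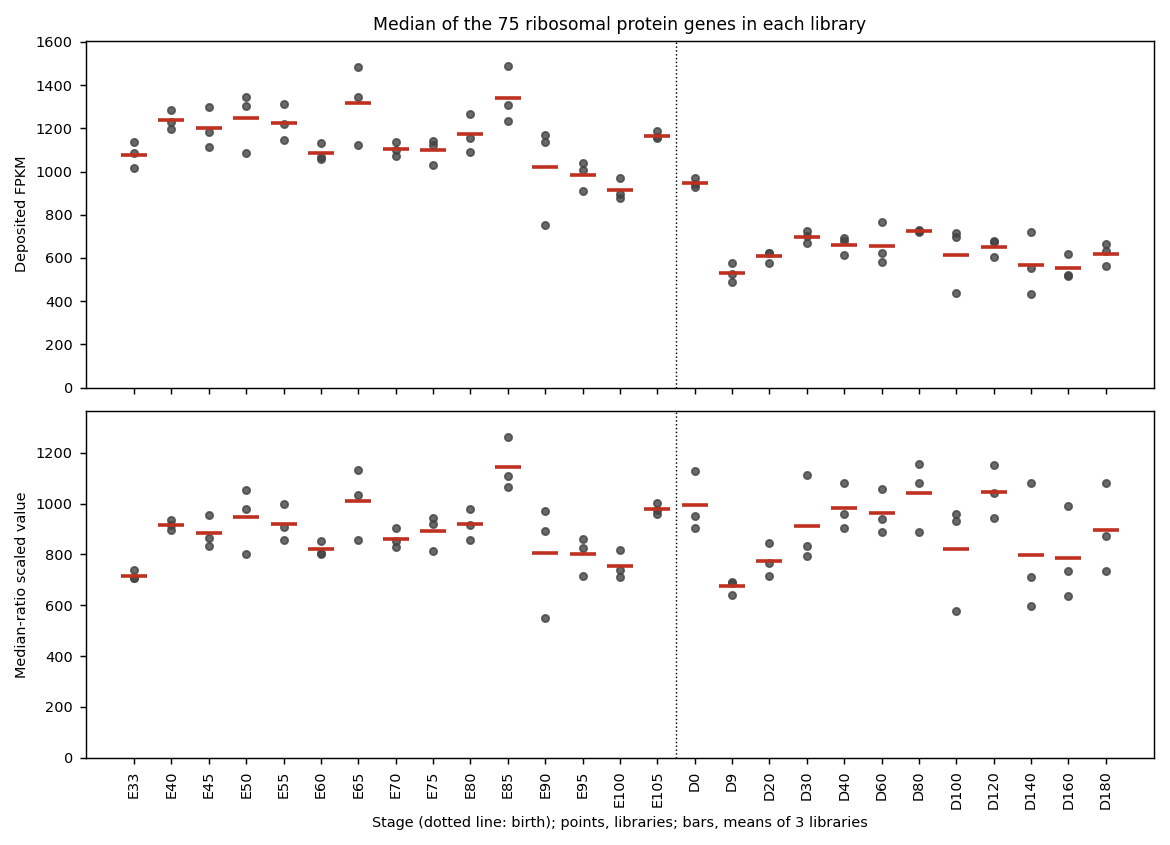
Median of the 75 tested ribosomal protein genes in each of the 81 libraries by stage, as deposited FPKM (top) and as median-ratio scaled values (bottom); points are libraries and bars are means of 3 libraries. The deposited median lay between 753 and 1487 FPKM before birth and between 432 and 969 FPKM after it, and on the scaled values the D9 libraries stood at 642 to 693 against 903 to 1127 at D0.

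All 75 genes differed between stages (limma's moderated F test over 27 stages, adjusted p below 0.05 for each), as did 99.3% of all tested genes on the deposited scale and 98.5% on the scaled values. The highest stage mean was 1.82 to 4.38 times the lowest in deposited FPKM (median 2.73 over the 75 genes) and 1.62 to 5.21 times in scaled values (median 2.01). On deposited FPKM the highest stage was E85 for 32 genes and the lowest was D9 for 47. On scaled values the highest stage was D120 for 22 genes and E85 for 21, and the lowest was D9 for 34 and E33 for 18. D9 was thus the most frequent lowest stage on both scales, while the most frequent highest stage was not the same.

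**Figure D2:**
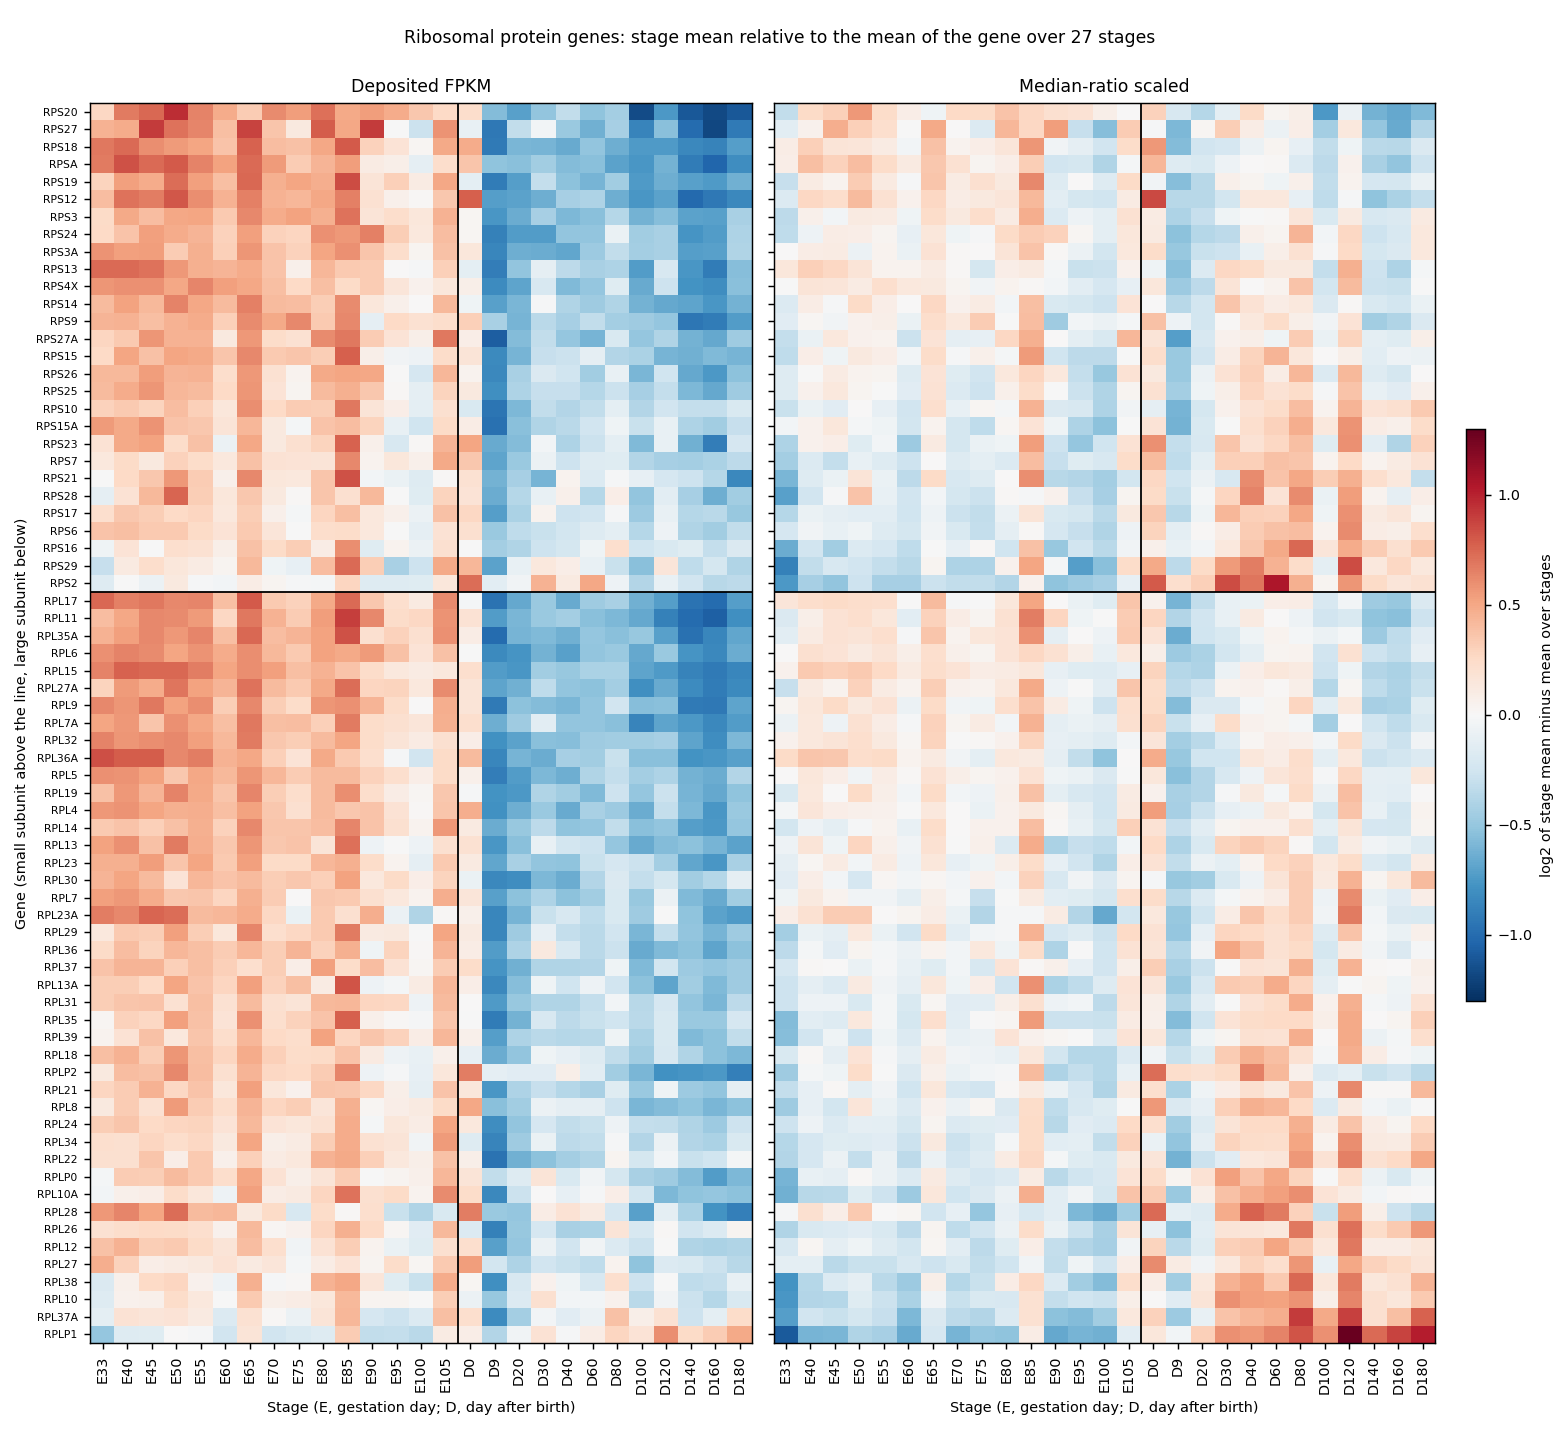
Stage means of 71 of the 75 tested genes (rows, small subunit above the line, large subunit below) over 27 stages (columns, the vertical line marks birth), as log2 difference from each gene's mean over stages, for deposited FPKM (left) and median-ratio scaled values (right). On the left most genes are red before birth and blue after it, D9 stands out as low, and RPLP1 at the bottom runs the other way; on the right that split is largely gone while D9 remains low.

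The first comparison asked how muscle after birth differed from muscle before it, over all stages. A gene was called when its adjusted p was below 0.05 and its absolute log2 fold change on log2(FPKM + 1) was at least 1 (limma, Benjamini-Hochberg over 14220 genes). On deposited FPKM, 14 of 75 genes were called lower after birth and 0 higher, where 22.6% of all tested genes were called lower and 4.02% higher. The share of the family that was called lay below that background. With the adjusted p alone 72 fell and 1 rose, where 76.4% of all genes fell and 17.4% rose. The median change of the family was -0.73 on the log2 scale, beside -0.55 over all genes. On scaled values the median was 0.08, beside -0.02, so the direction of the family's median turned with the scale. There, 1 gene was called higher (RPLP1) and 0 lower, where 10.5% of all genes were called higher and 6.50% lower, and with the adjusted p alone 37 rose and 21 fell, where 43.3% and 46.1% of all genes did.

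The called genes were of both subunits. RPS20, a protein of the small-subunit head, had 888 to 1836 FPKM before birth (median 1214) and 325 to 992 FPKM after it (median 525), with the upper end of the later group reaching into the earlier one. It fell by 1.22 on the log2 scale (SE 0.040, adjusted p = 6.3e-37). RPS27, a zinc-finger protein of the small subunit, went from 689 to 1945 FPKM before birth (median 1356) to 341 to 1015 FPKM after it (median 627), also with overlapping ranges (log2 fold change -1.12, SE 0.046, adjusted p = 6.2e-32).

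In the large subunit, RPL17, which lies at the mouth of the exit tunnel, had 1047 to 1937 FPKM before birth (median 1526) and 373 to 1116 FPKM after it (median 661), so that only the ends of the ranges met (log2 fold change -1.16, SE 0.041, adjusted p = 5.1e-35). RPL11, which with RPL5 carries the 5S ribosomal RNA into the subunit and binds the p53 regulator MDM2, had 941 to 1977 FPKM and 324 to 1216 FPKM (medians 1284 and 560; log2 fold change -1.15, SE 0.048, adjusted p = 3.1e-31). RPL35A, a gene mutated in human Diamond-Blackfan anaemia, had 360 to 1157 FPKM and 250 to 758 FPKM (medians 856 and 394; log2 fold change -1.12, adjusted p = 2.4e-29). RPL6 had 1497 to 2282 FPKM before birth (median 1892) and 602 to 1484 FPKM after it (median 887), with no overlap (log2 fold change -1.10, SE 0.035, adjusted p = 1.1e-37). On deposited FPKM 2 genes of the family, RPL6 among them, were lower without overlap, where 10.1% of all genes were, and on scaled values no gene was. Other called genes (RPL9, RPL15, RPL27A, RPS12, RPS18, RPS19 and RPSA) fell by 1.03 to 1.10 on the log2 scale. On scaled values RPS20 fell by 0.41, RPL17 by 0.35 and RPL11 by 0.34, so these genes kept their direction at a smaller size.

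RPLP1 ran against the family. It had 2099 to 4994 FPKM before birth (median 3245) and 2777 to 6008 FPKM after it (median 3975), with wide overlap (log2 fold change 0.30, SE 0.046, adjusted p = 1.9e-08). On scaled values it had 1530 to 4245 before birth (median 2552) and 3543 to 10207 after it (median 5444), with overlap in a narrow band (log2 fold change 1.11, SE 0.060, adjusted p = 1.7e-25). RPS2, which lines the messenger RNA entry channel, did not pass on deposited FPKM (0.01, SE 0.038, adjusted p = 0.76) and rose on scaled values (0.82, adjusted p = 3.9e-24). RPL37A, a zinc-binding protein of the large subunit, likewise did not pass on deposited FPKM (-0.11, SE 0.066, adjusted p = 0.11). These 3 genes were the exceptions to the fall on deposited FPKM.

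The median log2 change was -0.77 over 31 small-subunit genes and -0.70 over 44 large-subunit genes on deposited FPKM, and 0.04 and 0.11 on scaled values. Genes with a pyrimidine run at the annotated start had a median of -0.76 (17 genes) and the others -0.71 (58 genes). RPL10 and RPLP0, whose runs are shown above, fell by 0.28 and 0.52, less than the median gene, while RPS20 and RPL17, with runs as well, fell most. Transcript length had a Spearman correlation of -0.23 with the change over the 75 genes, which share libraries and are not independent.

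To show how the genes varied among themselves, each library was scaled so that the median log2 level of the family was the same in all libraries, and the whole table was fitted again. A gene was called apart from the median member at an adjusted p below 0.05 and an absolute log2 difference of at least 0.5. After birth 6 genes were apart, all higher, where 34.5% of all tested genes were higher and 11.4% lower. They were RPLP1 (1.13, SE 0.028), RPS2 (0.84, SE 0.027), RPL37A (0.72, SE 0.042), RPL10 (0.55, SE 0.018), RPS29 (0.54, SE 0.047) and RPL38 (0.52, SE 0.023), with adjusted p-values from 8.0e-17 down to 5.4e-44. RPL10 sits at the subunit interface and joins late in assembly, RPS29 is a zinc-binding protein of the small-subunit head, and RPL38 is known in the mouse for its part in translating Hox messenger RNAs. Below the median member, RPS20 (-0.40), RPL17 (-0.34), RPL11 (-0.32), RPS27 (-0.30) and RPL35A (-0.29) were the lowest. None of these reached the limit of 0.5, although each passed the adjusted p.

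**Figure D3:**
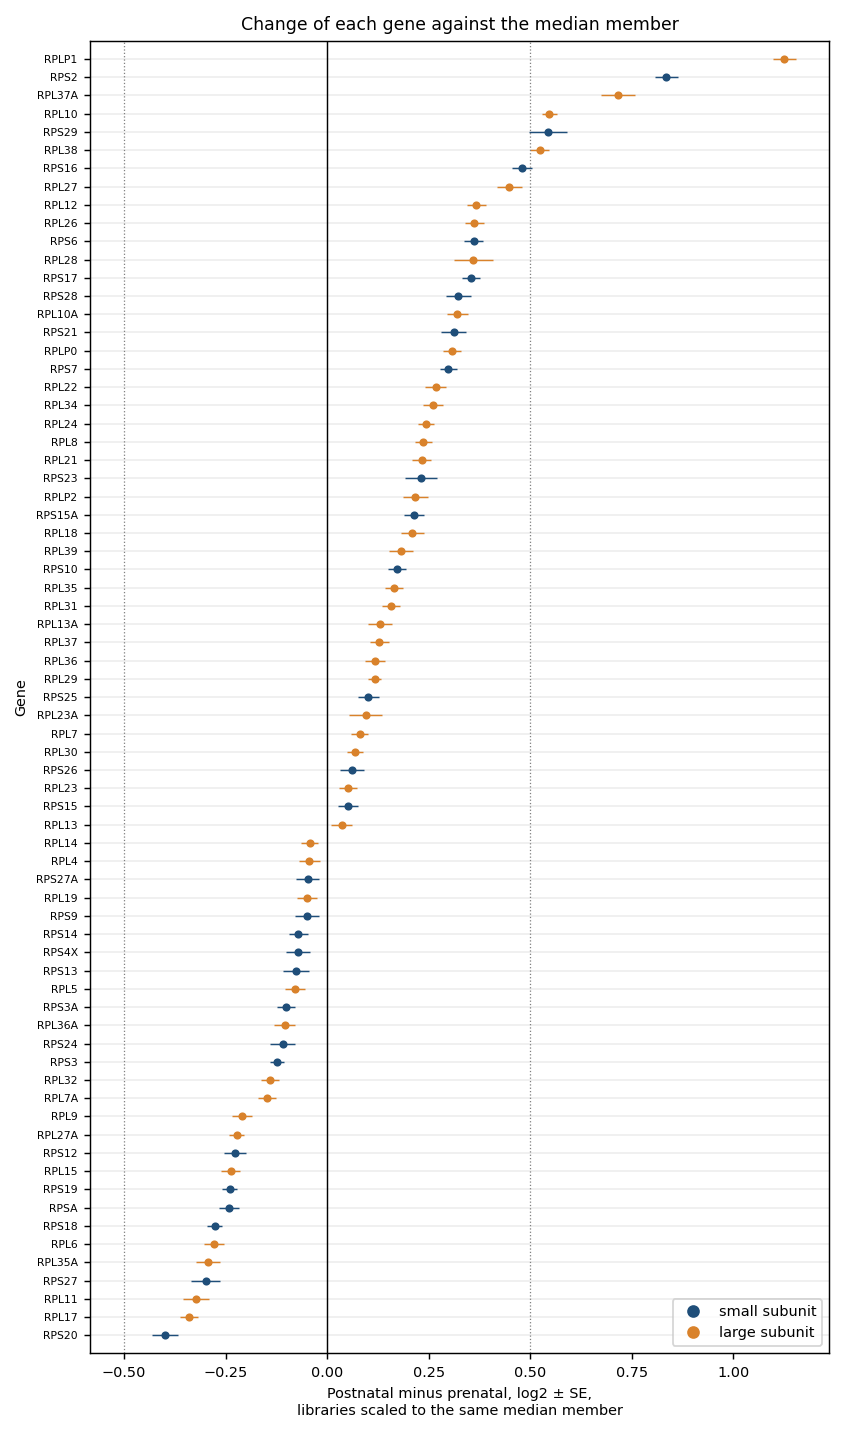
Postnatal minus prenatal log2 difference of 71 of the 75 genes after the libraries were scaled to the same median member (points, with SE bars; blue for the small subunit, orange for the large subunit; dotted lines at -0.5 and 0.5). The 6 genes beyond 0.5 run from RPL38 (0.52) to RPLP1 (1.13), no gene lies beyond -0.5, and both subunits are spread over the range.

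The 3 stalk genes parted from each other. RPLP0, RPLP1 and RPLP2 form the stalk that recruits the elongation factors. Their ratios within a library do not depend on its scaling. RPLP1 over RPLP0 was 1.68, 1.49 and 1.62 in the 3 libraries of E33, 1.73, 1.78 and 1.87 at E105, and 2.16, 2.05 and 2.12 at D0. It was 2.37, 2.44 and 2.50 at D20 and 4.45, 5.23 and 4.51 at D180. The D180 libraries were all above every prenatal library, in which the ratio ranged from 1.49 to 2.42 (median 1.69, n = 45). In the postnatal libraries it ranged from 1.88 to 5.82 (median 2.87, n = 36), and the 9 libraries of D140 to D180 (3.42 to 5.82) did not overlap with the 9 of D20 to D40 (1.88 to 2.89). RPLP1 over RPLP2 ranged from 2.43 to 4.08 before birth and from 2.41 to 12.3 after it.

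Each stalk gene took its own course. RPLP1 was lowest at E33 (2855, 2556 and 2467 FPKM) and highest at D120 (5368, 6008 and 5613 FPKM), with all D120 libraries above all those of E33. RPLP0 was highest at E65 (2110, 2587 and 2409 FPKM) and lowest at D160 (912, 850 and 1273 FPKM), the reverse order in time. RPLP2 was highest at D0 (1552, 1584 and 1396 FPKM) and lowest at D180 (514, 522 and 516 FPKM), where its 3 libraries were close together. After birth as a whole RPLP0 fell by 0.52 (SE 0.041, adjusted p = 2.6e-18) and RPLP2 fell by 0.61 (SE 0.044, adjusted p = 1.2e-19) on deposited FPKM, while on scaled values both were higher (0.30 and 0.20, with adjusted p-values of 2.9e-07 and 7.8e-05). Their direction over birth thus depended on the scale, and that of RPLP1 did not.

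**Figure D4:**
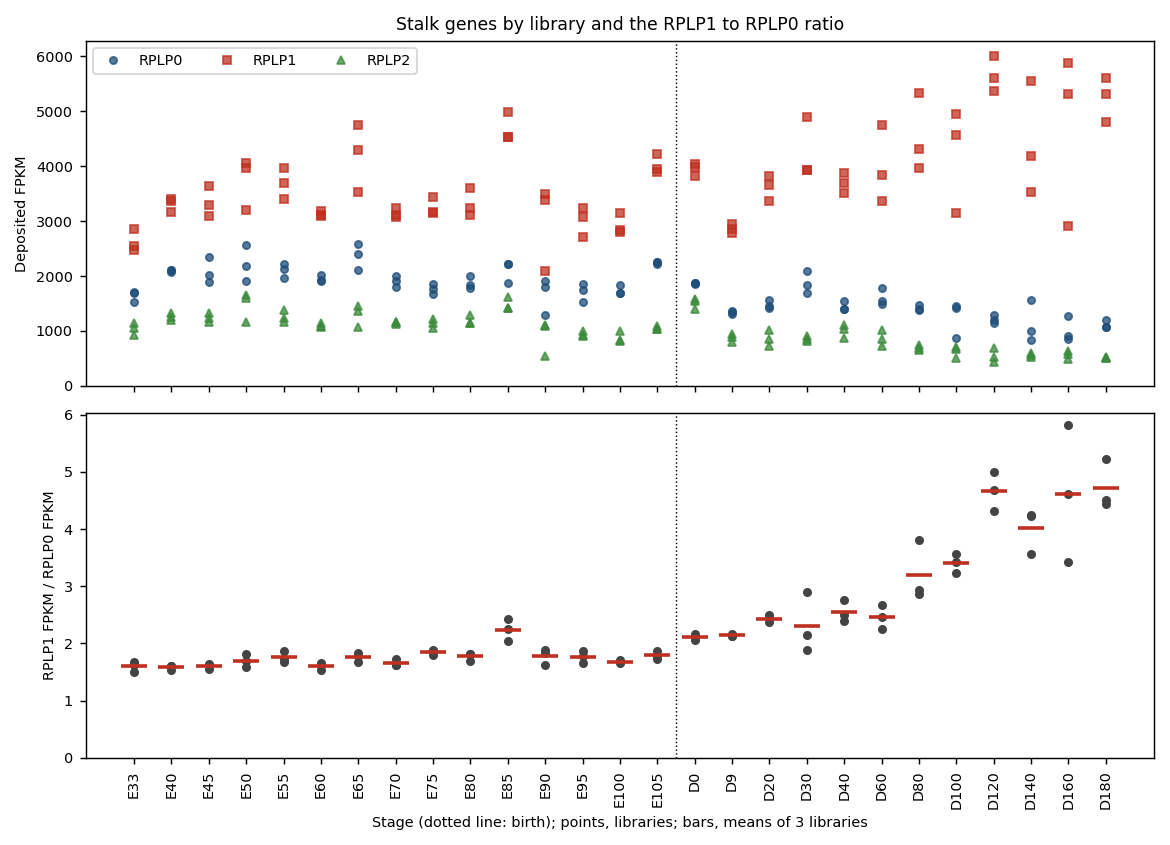
Deposited FPKM of RPLP0, RPLP1 and RPLP2 in each of the 81 libraries by stage (top) and the ratio of RPLP1 to RPLP0 in the same libraries (bottom; bars are means of 3 libraries, the dotted line marks birth). The ratio is 1.49 to 2.42 in the prenatal libraries and reaches 3.42 to 5.82 in those of D140 to D180.

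The second comparison set the 2 ends of gestation against each other, and does not cover the stages between them. The mean of the 3 library medians, on scaled values, was 717 at E33, 1145 at E85 and 756 at E100. Between early fetal (E33, E40, E45) and late fetal (E95, E100, E105) muscle 0 of 75 genes were called, where 6.07% of all genes were called higher and 9.32% lower. At an unadjusted p below 0.05 there were 44, and with the adjusted p alone 43 fell and 1 rose (51.0% and 24.4% of all genes). The median was -0.23, beside -0.19 over all genes, and on scaled values -0.02, beside -0.03. There, 0 were called (6.94% of all genes higher and 5.80% lower, with 24 of the family at an unadjusted p below 0.05), and with the adjusted p alone 15 fell and 5 rose, where 38.0% and 31.8% of all genes did. The family's median was thus close to that of all genes on both scales.

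Among single genes, RPL28 had 265 to 316 FPKM in the 9 early libraries (median 303) and 147 to 183 FPKM in the 9 late ones (median 162), without overlap. It fell by 0.86 (SE 0.096, adjusted p = 6.3e-12), and by 0.65 on scaled values. RPL23A, which sits at the exit tunnel and docks the signal recognition particle, fell by 0.83 (adjusted p = 3.2e-12), from 810 to 1032 FPKM down to 401 to 579 FPKM. RPL36A fell by 0.81 and RPSA, also known as the laminin receptor precursor, by 0.69, both without overlap between the groups. RPL10A, a protein of the mobile L1 stalk, was the gene that rose (0.26, SE 0.097, adjusted p = 0.013), from 1181 to 1440 FPKM to 1215 to 1985 FPKM, with overlapping ranges. On deposited FPKM 14 genes were lower without overlap, where 26.9% of all genes were. Scaled to the median member, RPL28 (-0.66), RPL23A (-0.63) and RPL36A (-0.61) were lower by at least 0.5, where 17.6% of all genes were.

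The comparisons around birth share the D0 libraries, so D0 against E105 and D9 against D0 are not independent and are given side by side. At D0 against E105, 0 genes were called on deposited FPKM, where 2.78% of all genes were called higher and 9.38% lower. At an unadjusted p below 0.05 there were 35, and with the adjusted p alone 28 fell and 4 rose (39.2% and 14.1% of all genes), 19 to 30 in all when a library was left out (19 without E105 replicate 2). On scaled values 1 gene was called higher (RPL28), where 5.39% of all genes were called higher and 5.65% lower, and 12 rose and 1 fell with the adjusted p alone, where 25.7% and 25.4% did. The family's median was -0.22, beside -0.20 over all genes, and 0.09, beside -0.01, on scaled values. The family as a whole therefore had no direction at birth that held on both scales.

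The genes did not move together at birth. RPL28, which was low in the late fetus, had 183, 178 and 159 FPKM at E105 and 299, 362 and 287 FPKM at D0. It rose by 0.86 (SE 0.17, adjusted p = 1.8e-05), and by 1.17 on scaled values (adjusted p = 2.0e-08). RPS2 rose as well, from 319, 298 and 286 FPKM to 462, 454 and 433 FPKM (0.58, SE 0.14, adjusted p = 3.3e-04), as did RPLP2 (0.51, adjusted p = 0.0061) and RPS12 (0.43, adjusted p = 0.025). In each of these 4 genes every D0 library was above every E105 library. Over the family 8 genes were higher and 41 lower without overlap on deposited FPKM, where 13.4% and 39.8% of all genes were. On scaled values 29 were higher and 5 lower, where 25.5% and 27.2% of all genes were.

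Other genes went down over the same step. RPL34 had 474, 448 and 441 FPKM at E105 and 281, 252 and 298 FPKM at D0 (log2 fold change -0.71, adjusted p = 1.8e-04). RPS27 fell by 0.67 (adjusted p = 5.7e-04), from 1442, 1391 and 1356 FPKM to 874, 815 and 939 FPKM. On scaled values neither passed the adjusted p. Scaled to the median member, 6 genes were higher by at least 0.5, from RPL27 (0.50) and RPL8 (0.55) to RPL28 (1.16), and 1 was lower, where 18.2% and 12.3% of all genes were.

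Between D0 and D9 all 75 genes fell on deposited FPKM. With the adjusted p alone 75 were lower and 0 higher, where 36.4% of all tested genes were lower and 15.5% higher, and in all 75 every D9 library was below every D0 library, where 35.9% of all genes were. The count was 72 to 75 when a library was left out. With the fold change limit 19 were called lower, where 5.44% of all genes were called lower and 4.99% higher. The median change was -0.88, beside -0.17 over all genes. On scaled values the median was -0.59, beside 0.00 over all genes, 64 genes fell with the adjusted p alone, where 22.7% of all genes fell and 24.3% rose, and 72 did not overlap, where 21.5% did not. With the fold change limit 2 were called on that scale (RPS12 and RPS18), where 2.64% of all genes were called lower and 7.55% higher. Leaving out a library gave 45 to 66 genes with the adjusted p alone on scaled values, and 12 to 24 called on deposited FPKM (12 without D9 replicate 1).

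RPS12, a protein of the small-subunit beak, moved most. It had 2455, 2416 and 2552 FPKM at D0 and 854, 927 and 848 FPKM at D9, and fell by 1.50 (SE 0.17, adjusted p = 3.8e-11). Its scaled values were 2485, 2353 and 2969 at D0 and 1122, 1114 and 1114 at D9 (log2 fold change -1.21, adjusted p = 4.6e-07). RPS18, a protein of the small-subunit head, had 1639, 1644 and 1595 FPKM at D0 and 559, 657 and 627 FPKM at D9, so both groups were tight and far apart. It fell by 1.41 (SE 0.13, adjusted p = 1.9e-13), and by 1.12 on scaled values. Scaled to the median member, RPS12 (-0.66) and RPS18 (-0.57) were lower by at least 0.5 and 0 genes higher, where 1.67% and 61.9% of all genes were.

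RPL4, whose long loop reaches into the exit tunnel, had 889, 860 and 881 FPKM at D0 and 344, 375 and 379 FPKM at D9 (log2 fold change -1.26, SE 0.11, adjusted p = 1.5e-14). RPL36A, which lies near the tRNA exit site, had 432, 475 and 489 FPKM and then 172, 219 and 195 FPKM (log2 fold change -1.25, adjusted p = 8.4e-09). RPS23, which contacts the decoding centre, had 1401, 1493 and 1548 FPKM and then 597, 731 and 639 FPKM (log2 fold change -1.18, adjusted p = 3.1e-06). In RPS12 and RPL4 every E105 library was below every D0 library, and in RPS18, RPL36A and RPS23 the E105 and D0 libraries overlapped.

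Among the genes that fell least were members of both subunits. RPL10 went from 1525, 1488 and 1653 FPKM to 1074, 1239 and 1171 FPKM (log2 fold change -0.42, adjusted p = 0.0082). RPS16 (-0.44), RPLP1 (-0.46) and RPLP0 (-0.48) were next. On scaled values these 4 genes had log2 fold changes of -0.14, -0.15, -0.18 and -0.20 and did not pass the adjusted p. RPL10A had 1733, 1008 and 1685 FPKM at D0, so D0 replicate 2 lay apart for this gene, and 692, 742 and 663 FPKM at D9 (log2 fold change -1.04, from -1.29 to -0.90 when a library was left out). The median change was -0.88 over small-subunit genes and -0.89 over large-subunit genes. It was -0.82 over the 17 genes with a pyrimidine run at the start and -0.90 over the 58 without.

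**Figure D5:**
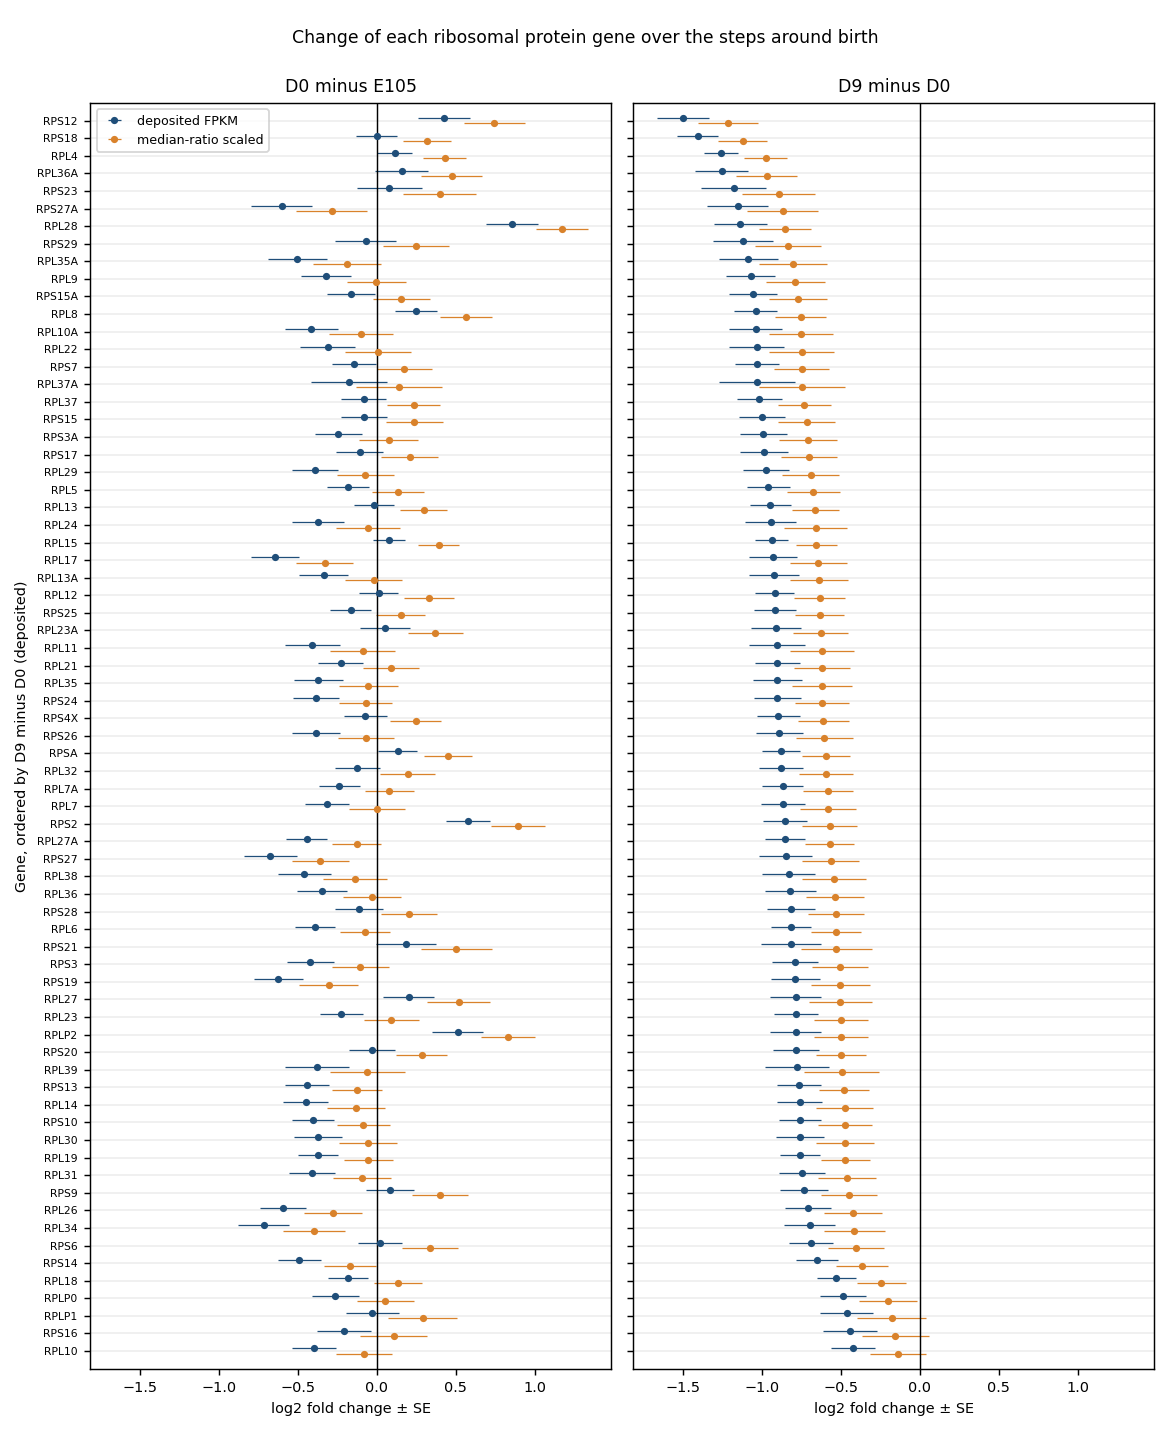
Log2 fold change of 71 of the 75 genes from E105 to D0 (left) and from D0 to D9 (right), with SE bars, on deposited FPKM (blue) and on median-ratio scaled values (orange); both panels share the D0 libraries. From D0 to D9 all points lie below 0, from -1.50 (RPS12) to -0.42 (RPL10) on deposited FPKM, while from E105 to D0 they lie on both sides, from -0.71 (RPL34) to 0.86 (RPL28).

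Cell type marker lists differed in how many of their genes moved over the same step. From D0 to D9 the summed level of the 18 muscle fibre genes went from 24563 to 38327 FPKM up to 77711 to 85806 FPKM, and 11 of 18 were called higher, where 4.99% of all genes were. The 8 erythroid markers found of 10 went from 312 to 378 FPKM to 1512 to 2232 FPKM, with KLF1 listed at 0 at both stages. The 19 leukocyte markers went from 26.2 to 44.9 FPKM to 128 to 210 FPKM (CD3E and MS4A1 listed at 0 at D0), and the 14 endothelial markers from 87.3 to 104.7 FPKM to 162 to 188 FPKM. The 13 fibroblast and matrix markers had 1920 to 7654 FPKM (median 2267.5) and then 4175 to 5602 FPKM (median 4305). The 12 adipocyte markers had 193 to 296 FPKM and then 341 to 569 FPKM. Such sums weigh the most abundant genes of a list most. With the adjusted p alone, 3 of 6 tested erythroid, 9 of 14 leukocyte and 10 of 14 endothelial markers rose on deposited FPKM. Of the tested fibroblast and matrix markers 2 of 13 rose, and of the adipocyte markers 6 of 11. In each of these lists 0 fell, where 2206 of 14220 genes rose and 5175 fell. On scaled values 4 of 6 erythroid, 12 of 14 leukocyte and 13 of 14 endothelial markers rose. So did 7 of 13 fibroblast and matrix and 8 of 11 adipocyte markers. Again 0 fell in each list, where 3457 of 14220 genes rose and 3226 fell. Of the muscle fibre genes 13 of 18 were called higher on that scale, where 1073 of 14220 genes were. The part of these markers in the fall of the ribosomal protein genes was not tested. Over birth as a whole 16 of the 18 muscle fibre genes were called higher, where 4.02% of all genes were. The summed level of the erythroid markers was 630 to 8573 FPKM before birth and 101 to 2232 FPKM after it, that of the leukocyte markers 13.4 to 91.2 FPKM and 26.2 to 985 FPKM, and that of the endothelial markers 62.1 to 333 FPKM and 65.2 to 229 FPKM. That of the fibroblast and matrix markers was 4017 to 16821 FPKM before birth and 1174 to 7654 FPKM after it. Its upper end after birth was that of a D0 library. That of the adipocyte markers was 52.5 to 351 FPKM and 193 to 1189 FPKM. These sums are of deposited FPKM. With the adjusted p alone, 3 of the 14 endothelial markers rose after birth and 10 fell (median -0.41), where 2471 of 14220 genes rose and 10866 fell. On scaled values 7 rose and 4 fell (median 0.22), where 6159 rose and 6557 fell. The medians of the other marker lists kept their sign. The part of these markers in the differences between the periods was not tested.

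Over the 26 steps between adjacent stages, the family had 19 calls on deposited FPKM, all from D0 to D9. All 19 were lower, where 773 of 14220 genes were called lower in that step. On scaled values it had 6 calls, 3 lower from E85 to E90, 1 higher from E105 to D0 and 2 lower from D0 to D9. In those steps 101, 767 and 375 of all genes were called in the same direction. From D20 to D30, 19 genes rose with the adjusted p alone (8.13% of all genes rose), among them RPL12 by 0.43 (adjusted p = 0.0078). Leaving out a library gave 9 to 18 of them, with 9 without D20 replicate 3, 10 without D30 replicate 3 and 12 without D20 replicate 2. On scaled values 14 rose, where 10.8% of all genes did, and 3 without D20 replicate 3 and 3 without D30 replicate 2. This rise thus rested on few libraries.

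Other steps with many changes gave fewer when single libraries were left out. From E85 to E90, 32 genes fell with the adjusted p alone (5.10% of all genes fell), and 4 without E90 replicate 2 and 17 without E85 replicate 1. On scaled values 33 fell, where 1094 of 14220 genes did. On that scale 3 were called lower (RPS21, RPL37A and RPL13A, where 0.710% of all genes were). RPL37A had 951, 810 and 943 FPKM at E85 and 695, 183 and 849 FPKM at E90, and RPS21 had 1999, 1838 and 1690 FPKM and then 1270, 546 and 1231 FPKM, so E90 replicate 2 was lowest for both. RPL13A, with 644, 527 and 618 FPKM and then 359, 253 and 355 FPKM, was apart in all libraries. From D80 to D100, 17 fell (3.63% of all genes), and 2 without D100 replicate 2, 8 without D80 replicate 2 and 10 without D80 replicate 3. On scaled values 21 fell in this step, where 1105 of 14220 genes did. From D100 to D120, 13 rose (2.83% of all genes), and 2 without D100 replicate 2, 4 without D120 replicate 2 and 7 without D120 replicate 3. On scaled values 34 rose, where 1462 of 14220 genes did. In the next step, to D140, 5 fell on deposited FPKM and 27 on scaled values, where 206 and 1075 of 14220 genes did. From E100 to E105, 16 rose (2.39% of all genes), led by RPS27 (0.86, adjusted p = 7.8e-04) and RPL38 (0.77, adjusted p = 0.0028), with 3 to 9 when any of the 6 libraries was left out. On scaled values 4 rose, where 201 of 14220 genes did. Counts on scaled values with a library left out are not given for these steps.

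The last comparison was of late against early postnatal muscle. Between D20 to D40 and D140 to D180, 0 genes were called, where 0.788% of all genes were called higher and 1.49% lower. At an unadjusted p below 0.05 there were 45, and with the adjusted p alone 37 fell and 4 rose (27.0% and 18.2% of all genes). On scaled values 0 were called (1.09% of all genes higher and 1.52% lower, with 35 of the family at an unadjusted p below 0.05), and 26 fell and 4 rose (26.5% and 24.2% of all genes). The median was -0.21, beside -0.05 over all genes, and -0.14, beside -0.02, on scaled values, so the direction held on both scales. RPS27 fell by 0.76 (SE 0.097, adjusted p = 2.0e-09), from 628 to 1015 FPKM (median 692) to 341 to 626 FPKM (median 448), without overlap. RPLP2 fell by 0.72 (SE 0.093, adjusted p = 3.8e-09), from 721 to 1118 FPKM (median 866) to 494 to 635 FPKM (median 526), also without overlap. These were the only 2 genes of the family lower without overlap, and on scaled values only RPLP2 was. The share of all genes without overlap is not given for this comparison. The genes that rose were RPL30 (0.35, adjusted p = 8.7e-04), RPL22 (0.33), RPLP1 (0.29) and RPL26 (0.23), each with overlapping groups. Scaled to the median member, RPS27 (-0.58) and RPLP2 (-0.53) were lower by at least 0.5, where 3.59% of all genes were, and RPL30 (0.54) and RPL22 (0.52) were higher by at least 0.5, where 1706 of 14220 genes were.

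Genes of the pathway outside the family were taken from fixed lists. Of 22 translation and other TOP genes, 20 fell and 2 rose after birth with the adjusted p alone on deposited FPKM, with a median of -0.77, where 76.4% of all genes fell and 17.4% rose. On scaled values 10 rose and 6 fell (median 0.04), where 43.3% and 46.1% of all genes did. The largest changes on deposited FPKM were those of EEF1A1, which delivers aminoacyl-tRNA (-2.23), of the RNA-binding protein HNRNPA1 (-2.10), of NACA, which binds nascent chains (-1.42), and of the histone chaperone NAP1L1 (-1.18). From D0 to D9, 17 of the 22 fell and 0 rose on deposited FPKM, where 36.4% and 15.5% of all genes did, and the median was -0.71. On scaled values 11 fell and 0 rose (median -0.43), where 22.7% and 24.3% of all genes did.

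Ribosome assembly genes were the next list, with 36 tested. From E105 to D0, 28 rose and 1 fell with the adjusted p alone on deposited FPKM (median 0.68), where 14.1% of all genes rose and 39.2% fell, and 4 of the 75 ribosomal protein genes rose and 28 fell. On scaled values 33 assembly genes rose and 0 fell (median 0.96), where 25.7% of all genes rose and 25.4% fell, and 12 ribosomal protein genes rose and 1 fell. Nucleolin (NCL), a major RNA-binding protein of the nucleolus, rose by 1.66 (SE 0.15, adjusted p = 2.9e-14), and NOLC1, a chaperone of small nucleolar particles, by 0.89 (adjusted p = 7.1e-07). NOP56, a core protein of those particles, did not pass on deposited FPKM (0.16, adjusted p = 0.34) and rose on scaled values (0.47, adjusted p = 0.0014). LYAR did not pass on either scale. From D0 to D9, 33 assembly genes fell on deposited FPKM (median -1.14) and 32 on scaled values (median -0.90), where 36.4% and 22.7% of all genes fell. On deposited FPKM, NOLC1 fell by 1.52, NCL by 1.43 and NOP56 by 1.04. After birth as a whole all 36 fell on deposited FPKM (median -0.78), where 76.4% of all genes fell. On scaled values 17 fell and 11 rose (median -0.05), where 46.1% and 43.3% of all genes did, a share of falls near that background. The difference between the lists was not tested.

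The 73 mitochondrial ribosomal protein genes, which build the organelle's own ribosome, had a median of 0.01 after birth on deposited FPKM, with 30 that rose and 31 that fell, and of 0.78 on scaled values, with 69 that rose and 3 that fell. The shares of all genes that rose were 17.4% and 43.3%, and 10866 and 6557 of 14220 genes fell. From E105 to D0, 40 rose and 2 fell on deposited FPKM (median 0.41) and 60 rose and 0 fell on scaled values (median 0.72), where 14.1% and 25.7% of all genes rose. From D0 to D9, 59 fell and 1 rose on deposited FPKM (median -0.54), and 31 fell and 2 rose on scaled values (median -0.27), where 36.4% and 22.7% of all genes fell.

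Of 16 genes of mTORC1 and TOP control, 11 fell and 5 rose after birth on deposited FPKM (median -0.29), where 76.4% of all genes fell and 17.4% rose. On scaled values 13 rose and 3 fell (median 0.33), where 43.3% and 46.1% of all genes did, so the direction of the list turned with the scale. TSC2 and TSC1, which together restrain mTORC1, fell on both scales, by 1.16 and 0.70 on deposited FPKM and by 0.48 and 0.14 on scaled values. The kinase gene RPS6KA3 rose on both, by 0.80 and 1.55, and the S6 kinase gene RPS6KB1 had -0.58 on deposited FPKM and 0.17 on scaled values. Of the 16, 10 fell and 1 rose from D0 to D9 on deposited FPKM, and 8 fell and 1 rose on scaled values, where 36.4% and 22.7% of all genes fell. Of 24 cell cycle genes, 23 fell from E105 to D0 on deposited FPKM (median -1.43) and 21 on scaled values (median -1.19), where 39.2% and 25.4% of all genes fell. In the next step, to D9, 21 rose on deposited FPKM (median 1.19) and 23 on scaled values (median 1.43), where 15.5% and 24.3% of all genes rose. Their part in the fall of the ribosomal protein genes over that step was not tested. Of 6 tested ribosomal protein paralogs outside the family's rule, 2 rose and 4 fell after birth on deposited FPKM. On scaled values 3 rose and 1 fell. The shares of all genes that rose were 17.4% and 43.3%, and those that fell 76.4% and 46.1%. RPL3L, a paralog made in striated muscle, rose by 4.16 and by 4.85 on the respective scales. RPL26L1 fell by 1.09 on deposited FPKM and by 0.31 on scaled values.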

How the data were processed

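Per the labels' protocols, RNA extracted with TRIzol was freed of ribosomal RNA, and libraries keeping strand information were read from both ends. The authors deposited FPKM per gene and library. Per the submitters' processing notes, the tools were Trimmomatic, HISAT2 2.0.4 and StringTie 1.3.1. The build is not given in the sources used here, nor is the annotation. The table has no counts. Low FPKM were compared with multiples of a common step per library, using RefSeq transcript lengths, and 19.3% to 28.4% of them were whole (tolerance 0.01), so no counts were recovered, depth is unknown and no counting interval is given. Summed FPKM were 320339 to 452249 a library.

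Of 28325 entries, 264 repeated another gene ID with identical values and were dropped. All 22175 NCBI gene IDs were found in the RefSeq table of Sscrofa11.1, whose coordinates and sequences are printed as that build's and not as the authors'. The log2(FPKM + 1) values entered limma 3.58.1 (R 4.3.3) in 1 fit of 27 stage means, variances moderated along their trend with level, and p-values (two-sided) adjusted by Benjamini-Hochberg over 14220 genes reaching 1 FPKM in 3 or more libraries. The same fit was run after median-ratio scaling. Python 3.11.15, pandas 2.3.3 and pysam 0.24.0 prepared tables and sequences. The fit was tested on simulated data. Group means weight stages equally.

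Named genes were the 3 highest and 3 lowest by mean level, called genes (the 6 largest of a comparison), the 5 highest and lowest against the median member, the stalk genes, and up to 4 of each list by change after birth. Others, such as those that moved at E105 to D0 or in single steps, were named after their values were seen. Some of the genes that this rule names are not reported here, and they are left out of the plots by gene but not of the counts. The genes, lists and comparisons were chosen with earlier results of these data known. Alternatives were another pseudocount, filter, scaling, threshold, replicate block, choice of libraries, and each library left out.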

Additional observations from a re-analysis of the deposited data

How the results depend on the processing

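A pseudocount of 0.1, another filter or none, and a fit of only the stages compared moved no count of called genes by over the limit used for a change and no median by more than the spread between libraries. Without the 3 libraries of D0, 17 genes were called after birth and 7 were apart from the median member. Scaling mattered. Under median-ratio scaling the family's median was 0.081 for postnatal against prenatal and 0.093 for D0 against E105, both reversed, -0.021 for late against early fetal and -0.59 for D9 against D0. These shifts follow from the dividing factors of the libraries. Why the factors differed between stages was not tested. Called genes then numbered 1, 0, 1, 2 and 0 over the 5 comparisons in the order of the report, and 6 over the 26 steps. Equal sums gave 9 for D9 against D0 and 9 over the steps. Quantile normalisation gave 7 after birth, 2 in the fetus, 7 for D9 against D0 (median -0.69) and 8 over the steps. For equal sums, quantile normalisation and the fit without D0, no share of all genes is given beside these counts. They show only how the calls depended on the processing. The adjusted p alone gave 73, 44, 32, 75 and 41, and with median-ratio scaling 58, 20, 13, 64 and 30. Both scales were set by the rule that chose the genes, whereas the adjusted p alone was not the limit set for a call. Of 35 results for single named genes, 31 lost their call under median-ratio scaling. Another 2, RPLP1 after birth and RPL28 from E105 to D0, were not called on deposited FPKM and gained a call. Quantile normalisation took the call from 20 and equal sums from 10.

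Leaving out each library gave 14 called after birth, 0 in late against early fetal, D0 against E105 and late against early postnatal muscle, 12 to 24 for D9 against D0 and for the steps (12 without D9 replicate 1), 6 apart from the median member and 75 in the F test. Medians ranged from -0.75 to -0.71, -0.25 to -0.21, -0.27 to -0.18, -0.93 to -0.83 and -0.26 to -0.15 over the 5 comparisons, and the share difference from -8.56 to -8.28 percentage points. Replicate numbers were not treated as pairs. Over 1053 pairs of same-numbered libraries the correlation of deviations ranged from -0.49 to 0.41 (240 over 0.1). Pairs of unlike number were not compared, so these values cannot tell whether same-numbered libraries belong together. The fit with the replicate block gave the same counts of 14, 0, 0, 19 and 0. Depth is unknown, so precision rests on the spread between 3 libraries a stage.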
